A study of Mus musculus with 8 samples.

Results

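Acute-phase proteins are plasma proteins whose production by the liver changes during inflammation, and this account covers 10 of their mouse genes: the serum amyloid A genes Saa1, Saa2, Saa3 and Saa4, lipocalin 2 (Lcn2), the orosomucoids Orm2 and Orm3, haptoglobin (Hp), C-reactive protein (Crp) and ceruloplasmin (Cp). Every probe set that the array annotation assigns to exactly 1 of these symbols was taken, which gave 19 of the 45037 probe sets tested and 10 of the 18193 genes that a probe set of 1 symbol represents. Cp had 8 probe sets, Saa1 and Saa4 had 2 each, and each of the other 7 genes had 1.

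The study asked how an extract of persimmon peel (PP) changes gene expression in the liver of an obese, diabetic mouse. Liver RNA was hybridised to Affymetrix mouse genome arrays, 1 array per mouse, from 4 mice fed the PP extract diet (PD) and 4 mice fed the control diet (CD). All 8 animals were 14-week-old male KK-Ay mice, a strain that carries the yellow obese agouti allele (Ay), overeats and becomes insulin resistant, and no lean or nondiabetic liver was among the arrays. PD mice received the AIN-93G diet with 1 g of the extract per kg for 8 weeks, whereas CD mice received AIN-93G alone for the same time. The mice were fasted briefly before the liver was taken, and the study chose the livers for the arrays because total ketone bodies in their plasma lay near the group average. The values are log2 of a model-based expression index, in which the intensities of the probes of a set are summarised to 1 number per array. A value has meaning only between mice for the same probe set, not between probe sets.

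In the acute-phase response, interleukin-1, interleukin-6 and related cytokines reach the hepatocyte, where transcription factors such as C/EBP beta, STAT3 and NF-kappa B switch on the genes of secreted proteins. In the mouse, Saa1 and Saa2 are the strongly inducible serum amyloid A genes of the liver, and their products travel on high-density lipoprotein. Saa4 is the constitutive serum amyloid A of the liver, and Saa3 is made mainly outside the hepatocyte, by macrophages and adipocytes among others. Crp, the classical marker in human plasma, is only a minor acute-phase protein in the mouse.

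The 4 serum amyloid A genes lie close together on mouse chromosome 7, in the order Saa3, Saa4, Saa1 and Saa2, and Orm2 and Orm3 adjoin each other on chromosome 4 (RefSeq annotation of GRCm38.p6). The 250 bases before the transcription start that RefSeq gives are shown for 4 genes. These are Saa1 and Saa2, whose probe sets moved together in these livers, and their neighbour Saa4, which did not follow them. The last is Lcn2, a gene of another chromosome that did. The annotation ties 1 of the 2 Saa1 probe sets to the Saa2 transcript, as it does the Saa2 probe set. The sequences are those of RefSeq on GRCm38.p6, written 5′ to 3′ on the strand of the gene, and capitals mark matches to the C/EBP motif TTGCNNAA on either strand.
Saa1 (chr7:46742981-46743230, minus strand): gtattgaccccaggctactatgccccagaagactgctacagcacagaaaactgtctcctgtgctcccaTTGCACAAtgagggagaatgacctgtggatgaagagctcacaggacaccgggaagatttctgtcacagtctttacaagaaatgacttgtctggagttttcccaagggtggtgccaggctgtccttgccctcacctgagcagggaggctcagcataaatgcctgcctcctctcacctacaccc
Saa2 (chr7:46751583-46751832, plus strand): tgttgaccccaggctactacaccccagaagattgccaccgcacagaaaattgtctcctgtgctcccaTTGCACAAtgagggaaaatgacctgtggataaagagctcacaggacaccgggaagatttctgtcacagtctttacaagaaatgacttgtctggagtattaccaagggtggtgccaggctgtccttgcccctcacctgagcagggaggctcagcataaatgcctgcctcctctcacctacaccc
Saa4 (chr7:46732604-46732853, minus strand): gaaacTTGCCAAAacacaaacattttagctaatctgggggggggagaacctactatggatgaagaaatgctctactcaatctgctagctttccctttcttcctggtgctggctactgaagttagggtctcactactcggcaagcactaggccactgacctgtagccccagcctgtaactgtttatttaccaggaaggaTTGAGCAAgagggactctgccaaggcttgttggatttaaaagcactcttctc
Lcn2 (chr2:32387740-32387989, minus strand): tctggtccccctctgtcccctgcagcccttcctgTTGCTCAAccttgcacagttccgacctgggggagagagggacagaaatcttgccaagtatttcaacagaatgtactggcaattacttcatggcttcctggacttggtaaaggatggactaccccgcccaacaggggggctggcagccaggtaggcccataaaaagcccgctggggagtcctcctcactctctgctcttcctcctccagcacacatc
The Saa1 and Saa2 windows were nearly the same sequence, with 238 identical bases in an alignment of 251 columns (94.8%). The match lies 182 to 175 bases before the start of Saa1 and 183 to 176 bases before that of Saa2, with the same 8 letters, TTGCACAA, in both. RefSeq draws the Saa1 gene up to 46743181, so most of its window, with the match, lies within the annotated gene. The Saa3 window and 1 of the 2 Cp windows, the one with a match, lie within their genes as well. The Orm3 window and the other Cp window reach partly into theirs. None of these windows is shown. Starts farther upstream in Saa1, Saa3, Orm3 and Cp were not searched. Saa4 held 2 matches, the nearer one 52 to 45 bases before its start, and Lcn2 held 1.

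RefSeq promoters were found for 9 of the 10 genes, Hp being the exception. A match to TTGCNNAA was present in 8 of these 9 genes, Crp having none, against 9.56% of all 32851 promoter windows of the same length. The 8 are counted by gene, and Cp, with 2 windows, held the match in only 1 of them. NF-kappa B was searched as GGNNTTTCC, which was present in Saa3 and in 1 of the 2 Cp windows and in 4.93% of all windows. STAT was searched as TTCNNNGAA, present in 7.02% of all windows, and the interleukin-6 response motif as CTGGGAA, present in 9.1%, and neither was in a member's window. Both inducible and constitutive genes thus carried the C/EBP letters. A match is a description of letters and not a measured binding site.

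Across the 8 livers the 10 genes split by how far they ranged between mice. The range was 5.93 on the log2 scale for Saa2, 4.87 for Lcn2, 4.30 for Orm2 and 4.17 for Saa1, the genes with the widest spread. Orm3 ranged over 2.14 and Saa3 over 1.79, and Hp over 0.81. Saa4 ranged over 0.66, Cp over 0.26 and Crp over 0.24 on their main probe sets, that is, the probe set with the highest mean for each gene.

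The same order appears when each gene is placed among all probe sets by its SD within the diet groups. Of all probe sets, only 0.00222% had a larger pooled SD than Saa2, 0.00666% than Lcn2, 0.0111% than Orm2 and 0.0155% than Saa1. The figure was 1.77% for Hp and 7.60% for Saa4. Crp and the main Cp probe set were unremarkable, with 40.5% and 33.3% of probe sets more variable. Other Cp probe sets differed in this. Cp 1441326_at ranged over 1.60, with only 0.264% of probe sets more variable, and Cp 1417496_at over 0.84, with 1.79%. For the remaining Cp probe sets the figure was 21.5% to 89.0%. These are descriptions without a test, because the grouping into inducible and constitutive genes was proposed with earlier results of these data known.

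**Figure D1:**
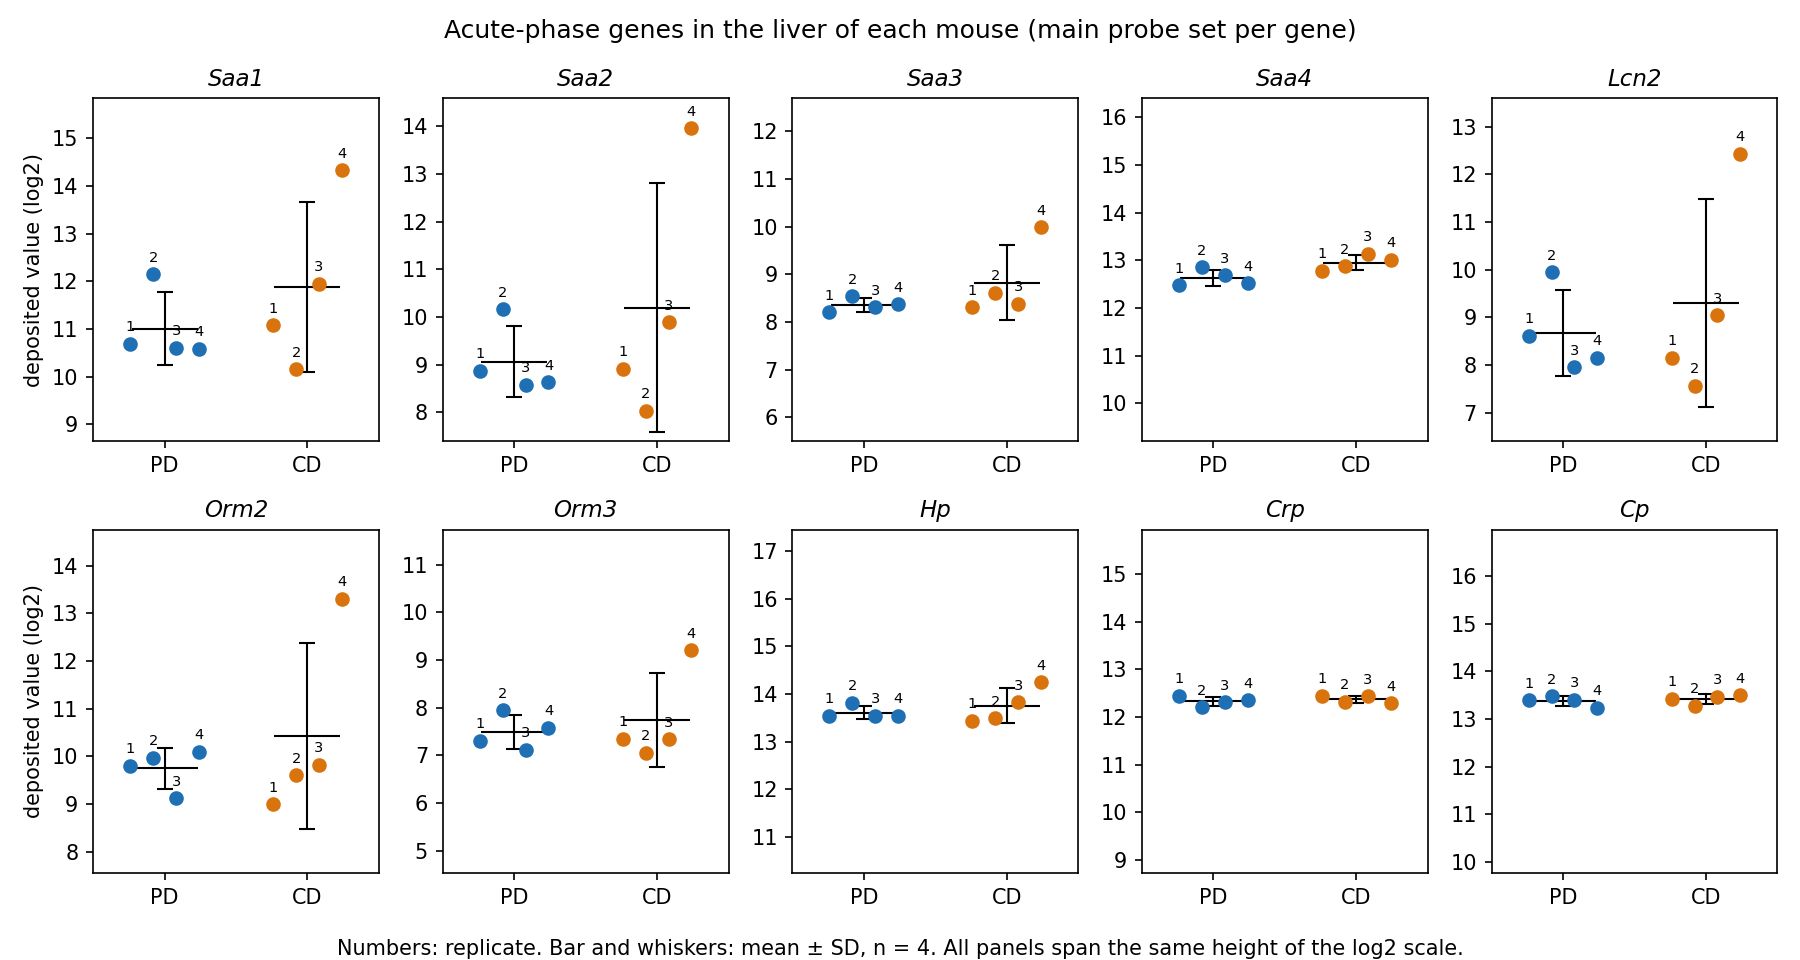
Deposited log2 value of the main probe set of each of the 10 genes (y axis) in the 4 PD mice (blue, left) and the 4 CD mice (orange, right). Points are single mice with their replicate number, and black bars are the mean ± SD of 4 mice. Every panel spans the same height in log2 units, so that the wide ranges of Saa1, Saa2, Lcn2 and Orm2 and the narrow ones of Saa4, Crp and Cp can be compared by eye. CD replicate 4 is the top point for 8 of the 10 genes.

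A single liver, that of CD replicate 4, carried most of this spread. On the main probe sets it was the highest of the 8 mice for 8 of the 10 genes, Saa4 and Crp being the exceptions. It was highest for 2401 of all 18193 genes and for 12.2% of all probe sets. Other probe sets could differ, since it was highest on Saa4 1419319_at (11.36) but the lowest CD mouse on Cp 1441326_at (7.12). In this mouse 30 probe sets stood more than 1 log2 unit above every other mouse, and 7 of the 30 belonged to 6 of the 10 genes (Saa1, Saa2, Saa3, Lcn2, Orm2 and Orm3). In each of the other 7 mice between 1 and 9 probe sets stood apart in this way, and none was a member. The differences of the members, and the calls of the gene lists that change, are therefore also given without this mouse.

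The 8 arrays were otherwise alike, with medians between 7.09 and 7.16 and pairwise correlations between 0.991 and 0.996. The 3′ to 5′ difference of the beta-actin control probe sets, a sign of RNA integrity, was 1.14 to 1.18 in PD mice and 1.16 to 1.19 in CD mice, CD replicate 4 having 1.16. Of 12 hepatocyte markers 9 were measured, with means of 13.43 to 13.48 in PD mice and 13.39 to 13.55 in CD mice. CD replicate 4 had the lowest mean and was the lowest mouse for 5 of the 9. Albumin (Alb), which defines the hepatocyte, was between 14.68 and 14.76 in all 8 livers. Cyp3a11, a drug-metabolising cytochrome P450, had 14.35 to 14.41 in PD mice, against 14.03 in CD replicate 4 and 14.33 to 14.39 in the other CD mice. The part of these differences in the results below was not tested. In bulk tissue, fewer cells of a type and less RNA per cell cannot be told apart.

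Saa1 encodes an inducible apolipoprotein of high-density lipoprotein. Its main probe set (1419075_s_at) read 10.69, 12.15, 10.61 and 10.58 in PD replicates 1 to 4, against 11.08, 10.16, 11.95 and 14.33 in CD replicates 1 to 4. The groups overlapped, since all 4 PD mice lay above the lowest CD mouse and PD replicate 2 lay above 3 of the CD mice. The mean was 11.01 ± 0.76 in PD mice and 11.88 ± 1.79 in CD mice (SD, n = 4 each), a difference of -0.87 (SE 0.73) or 0.546-fold. The rank product, the test of the study's methods, called it lower in PD mice (FDR = 0.0142). Without CD replicate 4 the difference was -0.06 and without CD replicate 3 it was -0.85, and in neither case was it called.

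The second Saa1 probe set (1450788_at) gave the same picture, with 10.53, 12.05, 10.48 and 10.43 in PD mice, against 11.06, 10.18, 11.84 and 14.18 in CD mice. The difference was -0.94 (SE 0.71, FDR = 0.0107), and it was -0.15 and no longer called without CD replicate 4. It was also not called without CD replicate 3. The annotation ties this probe set to the RefSeq transcript of Saa1 and the main one to that of Saa2, although both are listed under the symbol Saa1. The suffixes of the main Saa1 and the Saa2 probe sets mark sets that can match several transcripts, and their values are uncertain as measures of 1 gene.

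Saa2 encodes the other inducible serum amyloid A of mouse liver. Its probe set (1449326_x_at) read 8.87, 10.16, 8.57 and 8.63 in PD mice, against 8.91, 8.03, 9.88 and 13.95 in CD mice. Among CD mice replicate 2 was the lowest of all 8 livers and replicate 4 the highest, 32.3-fold above the mean of the other 3 CD mice. The difference of -1.14 (SE 1.02) was called lower in PD mice (FDR = 0.0142). Without CD replicate 4 the mean of CD mice was 8.94 ± 0.93 (SD, n = 3), close to 9.06 ± 0.75 in PD mice (SD, n = 4), and the difference became 0.12. Without CD replicate 3 it was -1.24, and no longer called.

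Saa3 is the serum amyloid A gene best known from macrophages and fat. It read 8.20, 8.54, 8.31 and 8.37 in PD mice, against 8.31, 8.62, 8.39 and 9.99 in CD mice. Apart from CD replicate 4, all the mice lay within 8.20 and 8.62, and the difference of -0.47 (SE 0.30) was not called. It was -0.08 without that mouse.

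Saa4, the constitutive serum amyloid A, behaved otherwise, because its 2 diet groups hardly overlapped and CD replicate 4 did not stand apart. The probe set 1419319_at read 10.63, 10.88, 10.72 and 10.61 in PD mice, against 10.99, 11.06, 11.28 and 11.36 in CD mice. All 4 CD mice were above all 4 PD mice, which held for 1 of the 19 member probe sets, beside 1.02% over the whole array. The difference was -0.46 (SE 0.09, 95% interval -0.66 to -0.26), that is 0.728-fold, and the rank product called it (FDR = 0.0158). A two-sided exact permutation test gave p = 0.0286, the smallest value that 4 mice against 4 can give, before any correction for the number of probe sets. Without CD replicate 4 the difference was -0.40 and still called, but only just (FDR = 0.0998). Without CD replicate 3, where it was -0.42, it was not called.

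The main Saa4 probe set (1419318_at) pointed the same way, with 12.47, 12.85, 12.68 and 12.51 in PD mice, against 12.77, 12.87, 13.13 and 13.01 in CD mice. Here only PD replicate 2 lay above a CD mouse. The difference was -0.32 (SE 0.10), which just missed the threshold of the rank product (FDR = 0.102, exact permutation p = 0.0571). It was -0.30 without CD replicate 4 and stayed between -0.39 and -0.26 whichever mouse was left out.

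Lcn2 encodes lipocalin 2, a protein that withholds iron from bacteria by binding their siderophores. It read 8.61, 9.95, 7.96 and 8.16 in PD mice, against 8.16, 7.57, 9.05 and 12.44 in CD mice. CD replicate 4 was 18.1-fold above the mean of the other CD mice, and PD replicate 2 was 3.27-fold above the mean of the other PD mice. The difference of -0.63 (SE 0.89) was called lower (FDR = 0.0648). This direction did not hold. Without CD replicate 4 the difference was 0.41 and the rank product called Lcn2 higher in PD mice. Without CD replicate 3, with a difference of -0.72, the call was also higher, and without PD replicate 3 (-0.40) or PD replicate 4 (-0.46) there was no call.

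The orosomucoids, or alpha-1-acid glycoproteins, are acidic plasma proteins that bind drugs and dampen immune reactions. Orm2 read 9.81, 9.97, 9.12 and 10.10 in PD mice, against 9.002, 9.60, 9.82 and 13.31 in CD mice. CD replicate 4 lay 14.2-fold above the mean of the other CD mice, while those 3 mice fell inside or just below the PD range. The difference of -0.68 (SE 0.75) was not called and was 0.28 without CD replicate 4. Orm3 read 7.30, 7.95, 7.11 and 7.58 in PD mice, against 7.34, 7.06, 7.34 and 9.20 in CD mice. Its difference of -0.25 (SE 0.40) was not called, and it was 0.24 without CD replicate 4.

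Hp, which binds free haemoglobin, and Crp, a pentraxin that binds phosphocholine on microbes and damaged cells, were not called. Hp read 13.54, 13.81, 13.54 and 13.55 in PD mice, against 13.44, 13.49, 13.83 and 14.24 in CD mice, a difference of -0.14 (SE 0.15) with all mice and of 0.02 without CD replicate 4. In each diet the same mice were high as for Saa1, namely PD replicate 2 and CD replicates 3 and 4, on a scale several times smaller. Crp read 12.45, 12.20, 12.30 and 12.35 in PD mice, against 12.44, 12.32, 12.43 and 12.29 in CD mice, and CD replicate 4 was its lowest CD mouse. The difference of Crp was -0.04 with a 95% interval of -0.18 to 0.09, and it was -0.07 without CD replicate 4.

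Cp encodes ceruloplasmin, the copper-carrying ferroxidase of plasma. Its main probe set (1417494_a_at) read 13.40, 13.47, 13.40 and 13.24 in PD mice, against 13.43, 13.28, 13.47 and 13.50 in CD mice, a difference of -0.04 with a 95% interval of -0.18 to 0.10, and of -0.01 without CD replicate 4. Of the other 7 probe sets, 6 differed by -0.11 to 0.13 with all mice and by -0.08 to 0.13 without CD replicate 4, and were called in neither case. The eighth (1441326_at) was called lower (FDR = 0.0153), with 7.82, 6.91, 7.48 and 7.11 in PD mice, against 8.50, 7.54, 8.27 and 7.12 in CD mice. Its groups overlapped, its difference stood apart from those of the 7 others, and in it CD replicate 4 was the lowest CD mouse. The difference was -0.53 (SE 0.29) with all mice and -0.77, still called, without CD replicate 4, but the call was lost without CD replicate 1 (-0.31) or CD replicate 3 (-0.39). On 1417497_at all 4 PD mice lay above all 4 CD mice, by 0.12 on average, the 1 member probe set so separated upwards, against 1.06% of all probe sets. This probe set was dim, with values below the array medians in every mouse.

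**Figure D2:**
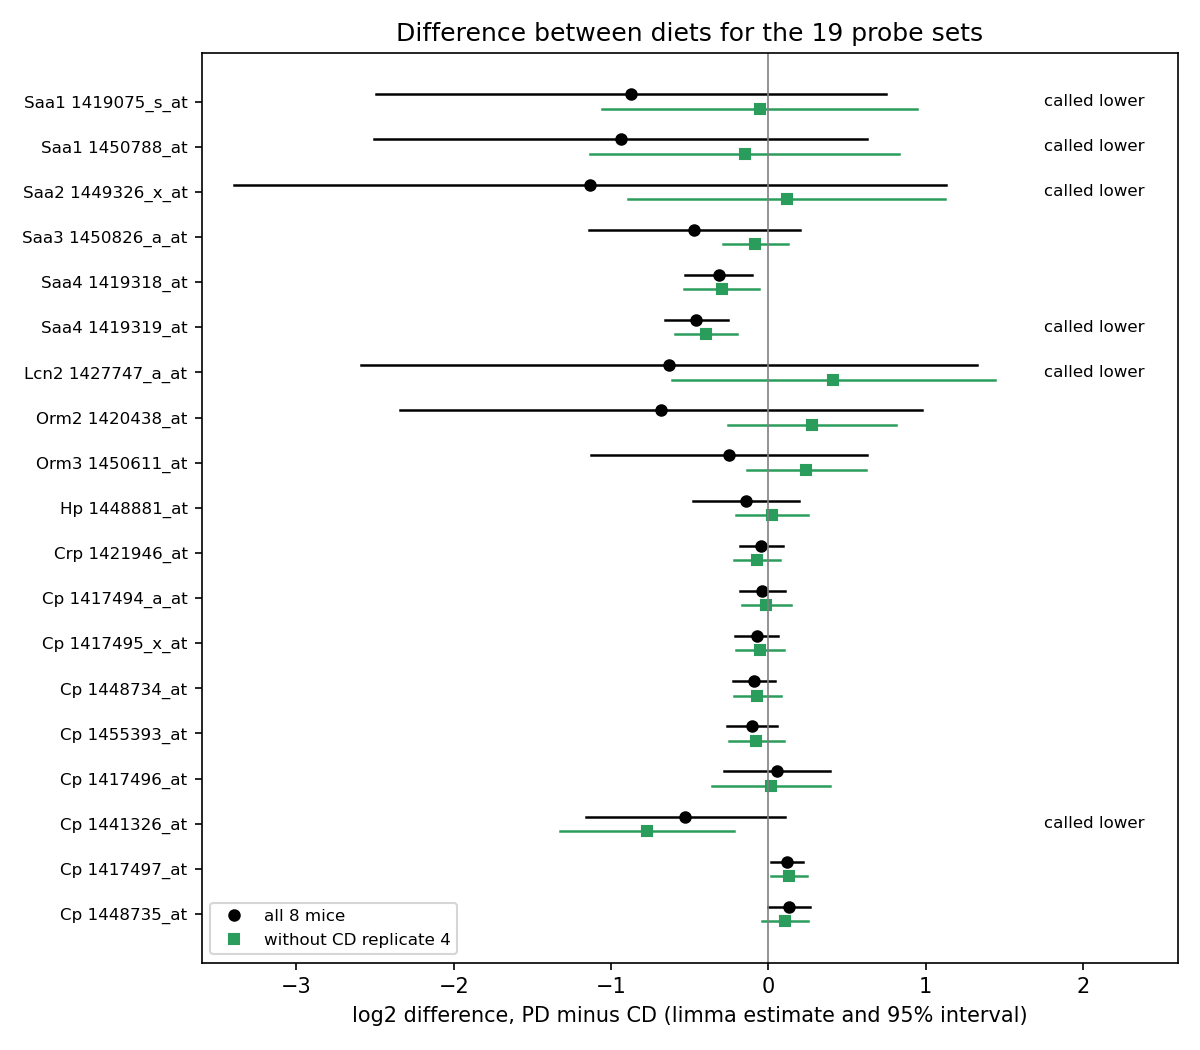
Difference of the mean log2 values, PD minus CD, for each of the 19 probe sets (rows), with its 95% limma interval, for all 8 mice (black circles) and without CD replicate 4 (green squares). Text at the right marks the 6 probe sets that the rank product called lower with all 8 mice. For Saa2 the value changes from -1.14 with all 8 mice to 0.12 without CD replicate 4, whereas for the Saa4 probe set 1419319_at it changes only from -0.46 to -0.40.

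Counted together, 6 of the 19 probe sets, of 5 of the 10 genes, were called lower by the rank product and 0 were called higher. Over all probe sets 0.262% were called lower and 0.218% higher. The members were chosen with earlier results of these data known, so their count cannot be weighed against such shares. The 6 include both Saa1 probe sets and that of Saa2, which read nearly alike and do not count as separate results. Counted on 1 probe set per gene, where 0.363% of all genes were called lower and 0.286% higher, 3 of the 10 genes were called lower, namely Saa1, Saa2 and Lcn2. Since the call of each of these 3 was lost or turned without CD replicate 4, the count depended on that mouse. Without it 2 of the 19 probe sets were called lower (Saa4 1419319_at and Cp 1441326_at, background 0.164%) and 1 was called higher (Lcn2, background 0.271%). The count changed with CD replicate 3 as well. Without it 0 of the 19 were called lower, Saa4 1419319_at and Cp 1441326_at included, and 1, Lcn2, was called higher. Over all 45037 probe sets, calls lower then fell from 118 to 34 and calls higher rose from 98 to 190. The differences of the 6 probe sets called with all 8 mice stayed between -1.24 and -0.39.

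limma, which sets each difference against the spread between mice, called none of the 19 probe sets at an adjusted p under 0.1, and 0% of all probe sets. Its lowest adjusted p over all probe sets was 0.998, and without CD replicate 4 it called 0 of the 19 as well. At an unadjusted p under 0.05 it had 3 of the 19 probe sets, the 2 of Saa4 and Cp 1417497_at, beside 3.65% of all probe sets. It had 4 without CD replicate 4, with Cp 1441326_at added, beside 3.42% of all. The methods' t-test had 3 of the 19 at the same unadjusted threshold, beside 3.80% of all, and 0 after Benjamini-Hochberg adjustment.

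All 10 genes had a mean below that of CD mice on their main probe set, with a median difference of -0.39 against -0.01 over all genes. Without CD replicate 4 only 5 of the 10 were below, and the median was 0.00. The genes that remained below were Saa1, Saa3, Saa4, Crp and Cp, and of these only Saa4 differed by more than 0.10.

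**Figure D3:**
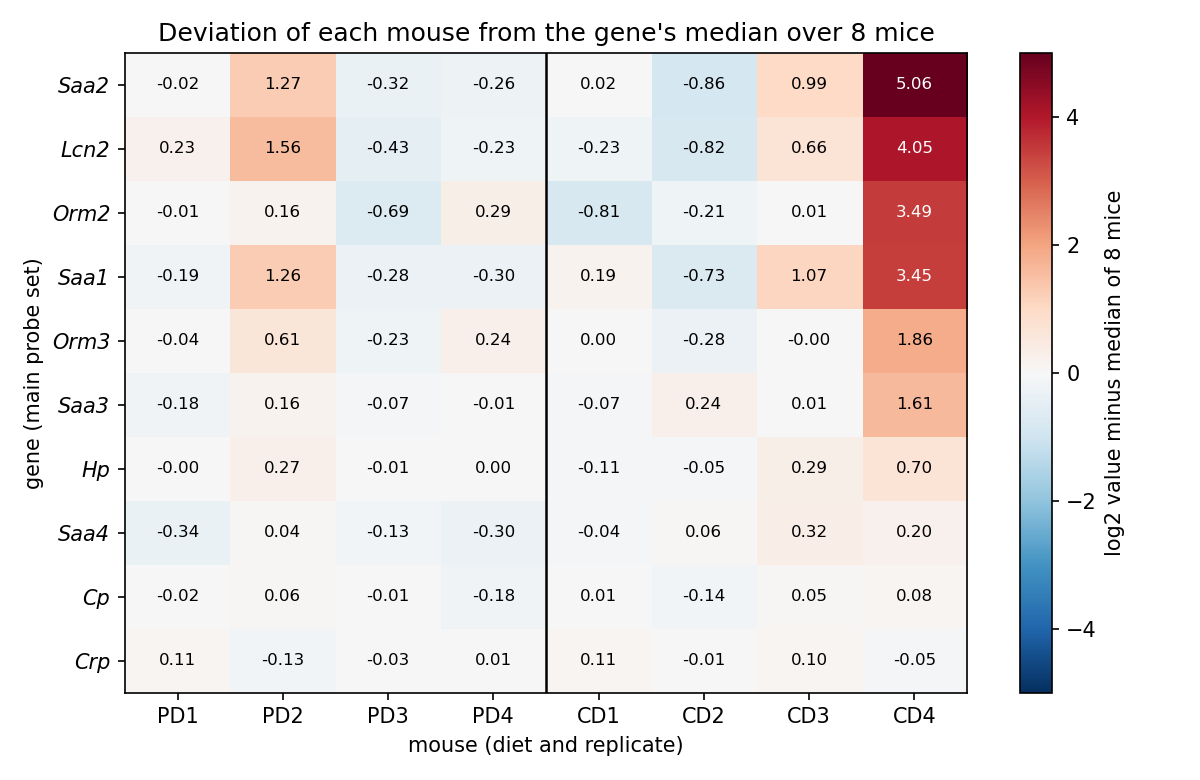
Deviation of each mouse (columns, PD left and CD right) from the median of the 8 mice for the main probe set of each gene (rows, widest range at the top), in log2 units. Red cells lie above the median and blue cells below it. CD replicate 4 lies 5.06 above the median for Saa2 and 3.45 for Saa1, PD replicate 2 lies 1.27 and 1.26 above it, and the rows of Saa4, Cp and Crp stay within 0.35 of it.

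PD replicate 2 was a second, smaller high mouse. It lay 2.87-fold above the mean of the other PD mice for Saa1, 2.78-fold for Saa2 and 3.27-fold for Lcn2, whereas its Orm2 value was 1.23-fold higher and its Crp value 0.893-fold of theirs. CD replicate 3 was the next liver in order for Saa1 and Saa2. CD replicate 2 was the lowest of all mice for Saa1, Saa2, Lcn2 and Orm3. High and low values of the inducible genes thus occurred under both diets.

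How closely the other genes followed Saa1 was described by Pearson's r over the 8 mice, which all share the pull of CD replicate 4. The r with the main Saa1 probe set was 0.999 for its second probe set, 0.986 for Saa2, 0.978 for Lcn2, 0.962 for Hp and 0.927 for Orm3. The annotation ties the main Saa1 and the Saa2 probe sets to the same RefSeq transcript, that of Saa2. Their r therefore may not compare 2 separate genes. Orm2 had 0.863 and Saa3 had 0.850, Cp 0.739, Saa4 0.608 and Crp -0.33. When CD replicate 4 and PD replicate 2, the 2 mice farthest from the median of Saa1, were left out, Saa2 (0.979), Lcn2 (0.858) and Hp (0.779) stayed high, and Cp (0.752) and Saa4 (0.617) stayed near their values over 8 mice. Orm3 (0.321), Orm2 (0.0430) and Saa3 (-0.29) did not, so that their likeness to Saa1 rested on those mice. Crp had 0.639 over these 6 mice.

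**Figure D4:**
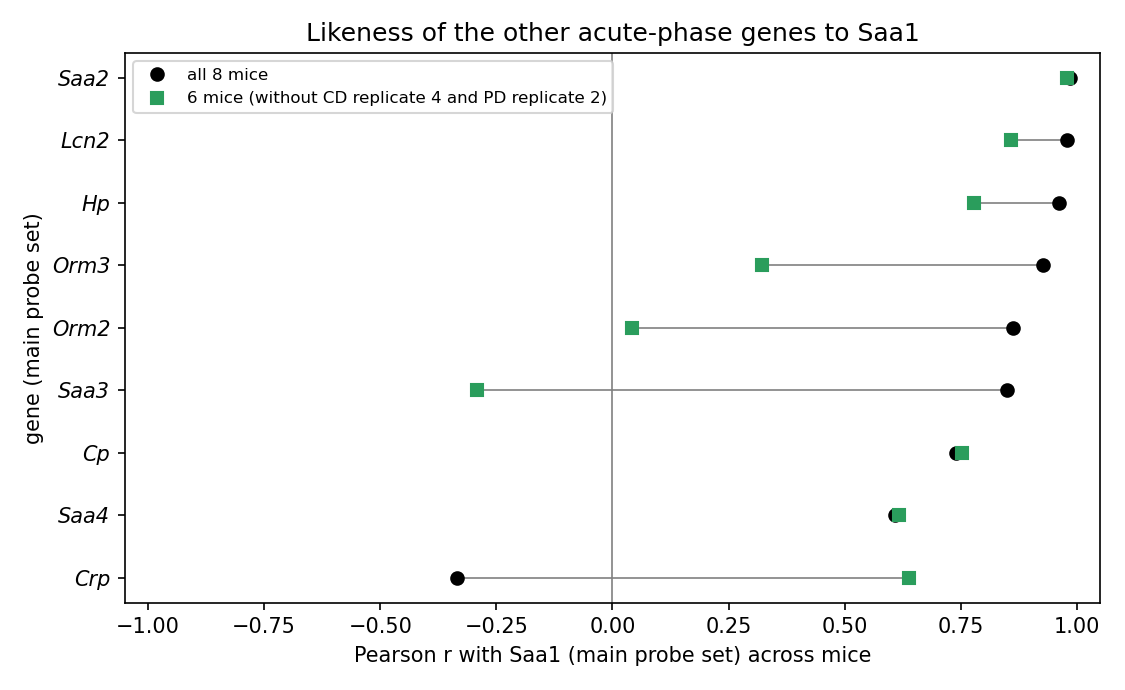
Pearson's r of each gene's main probe set with that of Saa1 (x axis) over all 8 mice (black circles) and over 6 mice, without CD replicate 4 and PD replicate 2 (green squares). Saa2, Lcn2 and Hp stay at 0.779 or above in both, while Orm2 moves to 0.0430 and Saa3 to -0.29 with 6 mice. The annotation ties the main Saa1 and the Saa2 probe sets to the same transcript, that of Saa2.

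Beyond the 10 genes, those whose pattern over the 8 mice was most like Saa1 were Rbm46 (r = 0.991), Lrg1 (0.973), Acp2 (0.971), Orm1 (0.966), Itih4 (0.963), Zhx1 (0.962), Prkci (0.958), 2810403D21Rik (0.958), Btbd19 (0.955) and 4930432K21Rik (0.951). Of 18192 genes, 79 (0.434%) had r above 0.9. Rbm46 (5.87 to 6.41), Zhx1 (6.14 to 6.39) and 2810403D21Rik (5.72 to 5.80) lay below the array medians in every mouse and ranged little. Without CD replicate 4 and PD replicate 2 the r of the 10 genes was 0.720 to 0.994. Lrg1 (leucine-rich alpha-2-glycoprotein), Orm1 and Itih4 (an inter-alpha-trypsin inhibitor heavy chain) are themselves acute-phase proteins of the liver. Orm1 read 13.20, 13.45, 13.15 and 13.17 in PD mice, against 13.13, 13.10, 13.29 and 14.03 in CD mice, so that CD replicate 4 again stood above the rest. None of these 10 genes was called.

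Around Saa4 the most alike were Brpf3 (0.994), St3gal6 (0.964), Dnajc3 (0.955), Robo3 (0.952), Cdc40 (0.952), Pet100 (0.944), Oas1h (0.933), Yap1 (0.930), Thoc5 (0.929) and Prrg4 (0.927). Only 21 genes (0.115%) had r above 0.9 with Saa4, and all 10 named here differed between diets by no more than 0.12 on the log2 scale without being called. No other acute-phase gene was among them. St3gal6, Robo3, Cdc40, Pet100 and Oas1h lay below the array medians in every mouse.

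Of 27 further proteins that rise in an acute phase, 22 were measured on the array. The rank product called 0 of them lower and 2 higher, beside 0.363% and 0.286% of all genes. The 2 were the metallothioneins Mt1 and Mt2, which bind zinc and copper. This list and those below were chosen with earlier results of these data known. Mt1 read 11.99, 12.00, 12.21 and 11.28 in PD mice, against 12.05, 10.40, 10.88 and 12.84 in CD mice, a difference of 0.33 (SE 0.44), and Mt2 differed by 0.33 (SE 0.56). In both genes the groups overlapped and CD replicate 4 was the highest mouse. Without it the differences were 0.76 for Mt1 and 0.83 for Mt2, both still called. CD replicate 4 was the highest mouse for 12 of the 22 genes, among them Orm1, the pentraxin Apcs, hemopexin (Hpx) and Lrg1. The lowest difference was that of Itih3 (-0.27), not called, and the median over the list was -0.04, against -0.01 over all genes.

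Of 16 proteins that decline in an acute phase, 15 were measured, and 1 was called. Over all genes 0.363% were called lower and 0.286% higher. Serpina7, the thyroxine-binding globulin, was higher in PD mice, with 9.17, 10.34, 9.59 and 10.06, against 8.34, 8.82, 9.51 and 9.34 in CD mice (difference 0.79, SE 0.28). The difference was 0.90 and still called without CD replicate 4. Lcat, which esterifies cholesterol on lipoproteins, had the lowest difference (-0.14), without a call. CD replicate 4 was the lowest mouse for 6 of the 15 genes, including Alb, transthyretin (Ttr), Apoa1 and Rbp4, and the highest for 4, namely Serpina6, Igfals, Fetub and Apom. Its median difference from the mean of the other CD mice was 0.07 over the list. The median difference between diets was 0.01.

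Among 29 receptors and regulators that carry the acute-phase signal, 26 were measured. Of these 4 were called lower and 0 higher, beside 0.363% and 0.286% of all genes, and the median difference was -0.04. Il6ra, the interleukin-6 receptor subunit, read 9.21, 9.80, 9.25 and 8.66 in PD mice, against 9.79, 9.80, 9.83 and 8.43 in CD mice. CD replicate 4, the mouse with the highest Saa1, thus had the lowest Il6ra, and the difference was -0.23 (SE 0.31) with all mice and -0.57, still called, without it. Il1r1, the type 1 interleukin-1 receptor, read 8.72, 9.50, 8.52 and 8.66 in PD mice, against 9.21, 9.12, 9.31 and 9.01 in CD mice. The difference was -0.31 (SE 0.18) with all mice. Without CD replicate 4 it was -0.36 and still called, but only just (FDR = 0.0975). The highest Il1r1 value was that of PD replicate 2.

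Socs3, the feedback inhibitor of STAT3 signalling (-0.21, SE 0.44), and Nfkbiz, an NF-kappa B cofactor (-0.32, SE 0.14), were also called lower with all 8 mice, but not without CD replicate 4. Cebpb (-0.26), Stat3 (-0.19) and Il6st (-0.06) were not called. The highest difference belonged to the glucocorticoid receptor gene Nr3c1 (0.13), again not called.

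Of 12 cytokines and chemokines, all measured, Cxcl1, a chemokine that attracts neutrophils, was called lower and 0 were called higher. The shares over all genes were 0.363% lower and 0.286% higher. Cxcl1 read 9.51, 9.12, 8.98 and 9.62 in PD mice, against 8.82, 9.71, 11.31 and 9.84 in CD mice, so that CD replicate 3 rather than CD replicate 4 stood out (difference -0.61, SE 0.41). The difference was -0.64 and still called without CD replicate 4. Interleukin-6, interleukin-1 beta and tumour necrosis factor, the classical inducers of the acute phase, were not called on their genes. Il6 lay between 5.67 and 5.83 in PD mice and between 5.67 and 5.80 in CD mice. Il1b differed by -0.06 and Tnf by -0.03, and Il11 had the highest difference of the list (0.09), not called. Il6 and Il11 lay below the array medians in every mouse, and Tnf lay near them (6.97 to 7.16). Whether such dim probe sets could show a change was not tested.

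Lcn2 and Saa3 are also made by leukocytes. Of 12 neutrophil markers 10 were measured and 0 were called with or without CD replicate 4, and their mean was 7.41 to 7.48 in PD mice and 7.46 to 7.54 in CD mice, CD replicate 4 having the highest value. S100a9 read 7.29, 7.39, 7.13 and 7.31 in PD mice, against 7.22, 7.65, 7.63 and 7.70 in CD mice, the lowest difference of the list (-0.27), and Elane had the highest (0.05). All 12 markers of Kupffer cells and macrophages were measured and 0 were called with all 8 mice, with means of 8.88 to 8.98 in PD mice and 8.58 to 9.13 in CD mice. CD replicates 3 and 4 had the highest Kupffer means (9.13 and 9.06) and were the CD mice highest for Saa1. Among PD mice the order differed, since PD replicate 2, with a Saa1 value of 12.15, had a Kupffer mean of 8.91, below the 8.98 of PD replicate 1, whose Saa1 value was 10.69. The differences ran from -0.05 for Marco to 0.13 for Cd5l, a protein secreted by macrophages, and without CD replicate 4 Cd5l was called higher in PD mice (0.29). The expression index has no true zero, so no marker can be called absent, and the part of either cell type in the results above was not tested.

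The other marker lists carried few calls, beside 0.363% of all genes called lower and 0.286% higher with all 8 mice. None of the measured markers of hepatocytes (9 genes), endothelial cells (6) or cholangiocytes (5) was called with or without CD replicate 4. Their differences ran from -0.28 (Ass1) to 0.11 (Apoa1) for hepatocytes, from -0.08 (Stab2) to 0.18 (Lyve1) for endothelial cells and from -0.06 (Krt7) to 0.01 (Epcam) for cholangiocytes. Of 5 adipocyte markers, Retn had the lowest difference (-0.03). Cidec, a lipid droplet protein, was called higher by 0.38 (SE 0.27) and a second probe set of Car3 by 0.12 (SE 0.40), and neither was called without CD replicate 4. Of 8 stellate cell and fibroblast markers, Reln had the lowest difference (-0.04). Col3a1, a collagen gene, was called higher by 0.37 (SE 0.18) with all mice and by 0.32 without CD replicate 4. Lrat, which makes retinyl esters, differed by 0.28 without a call, and was called higher without CD replicate 4 (0.35).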

How the data were processed

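Liver RNA of 8 KK-Ay mice (4 PD, 4 CD) was hybridised, each to an array of its own. The deposited log2 values are a model-based expression index that the authors computed from the scanner files, in R 2.7.2 per the submitters' processing notes, and they entered the tests unchanged. The scaling of arrays to each other was not given in the sources used here. Arrays hold no counts, and the number of mice limits the precision. Of 45101 probe sets, 64 controls were left out. A probe set was named from the platform annotation (34945 with 1 symbol, 932 with several, 9160 with none), and lists used the probe set of highest mean per gene.

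The rank product was computed on all 16 pairings of PD with CD arrays, permuting the values within arrays 1000 times (Python 3.11.15, numpy 2.4.6, pandas 2.3.3, scipy 1.17.1), and a probe set was called at FDR under 0.1. limma 3.58.1 in R 4.3.3 (lmFit, eBayes) was the second test, at an adjusted p under 0.1, and gave the SE and 95% intervals. For single probe sets a two-sided exact permutation test ran over all 70 splits of the 8 mice. Both fits used all 45037 probe sets. They were also run on simulated data with normal noise, in which differences were added only to probe sets of an SD below the median. That check does not bear on probe sets as variable as those of Saa1, Saa2, Lcn2 and Orm2.

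The members and lists were chosen with earlier results of these data known. Named are all members, called genes of the lists with the largest rise and fall of each, and the 10 genes most like Saa1 and Saa4. Other list genes named were chosen outside this rule, after their values were seen. The labels number the mice within each diet as biological replicates, and no batch is given. Alternatives were another threshold, pairing, array scaling, an addition of 16 before the log2, filters on probe sets, other limma settings, the methods' t-test and leaving out each mouse. Promoters are those of RefSeq on GRCm38.p6.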

Additional observations from a re-analysis of the deposited data

Results flagged for a closer look

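In 60 groups of 4 mice, the values of the members and of the called genes of all lists were checked for a mouse far from the other 3 of its diet, and 6 groups held one, of which 5 belonged to members. About 5% of such groups would be picked by chance. Both Saa1 probe sets are among the 6, read nearly alike and do not count as separate results. PD replicate 2 was far above the other PD mice for Saa1 on both probe sets, with 12.15 on 1419075_s_at where the next PD mouse had 10.69, and with 12.05 on 1450788_at where the next had 10.53. The same mouse was high for Hp, with 13.81 against 13.55 in the next PD mouse. CD replicate 4 was far above the other CD mice for Orm3, with 9.20 against 7.34. PD replicate 4 was low on the Cp probe set 1455393_at, with 12.15 against 12.37 in the next PD mouse. CD replicate 4 was low for Il6ra, with 8.43 against 9.79 in the next CD mouse.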

How the results depend on the processing

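The count of 6 member probe sets called lower was 0 to 7 when 1 mouse was left out (0 without CD replicate 3, 2 without CD replicate 4), 5 at an FDR under 0.05 and 1 when PD arrays were each ranked against the average CD array. The other settings gave 4 to 7. The count called higher, 0 in the main test, was 0 to 1 when 1 mouse was left out, the 1 being Lcn2. limma called 0 members in every setting run. Leaving out 1 mouse turned the sign of Saa2 (-1.86 to 0.12), Lcn2 (-1.21 to 0.41), Orm2 (-1.16 to 0.28), Orm3 (-0.47 to 0.24), Hp (-0.247 to 0.0217) and the Cp probe sets 1417494_a_at (-0.0868 to 0.0061) and 1417496_at (-0.0581 to 0.220). It turned no sign of Saa1, Saa3, Saa4 or Crp. Quantile normalization, an addition of 16 before the log2 and leaving out PD replicate 2 or 3 brought the main Saa4 probe set under the threshold. Over all probe sets the 118 called lower became 5 to 208 and the 98 called higher 27 to 190 across the settings. The cause of these shifts was not tested.

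Replicate numbers did not pair the mice, since deviations from the diet means of mice with equal number correlated between -0.06 and -0.00 over all probe sets. With the replicate block, the rank product over the 4 pairs of equal number called 7 members lower, Orm2 (-0.68) being added, and 1 higher, Lcn2, which it listed in both directions. limma with the block called 0.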

Other observations

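CD replicate 4, the liver with the highest Saa1, Saa2, Lcn2 and Orm2, was also set apart by genes outside the acute-phase list. Reg3b, a secreted lectin of the regenerating islet-derived family, had 10.95 on one probe set, against at most 6.36 in the other 7 mice, and 10.24 on another, against at most 6.76. Moxd1, a monooxygenase-like gene, had 9.71 against at most 8.14, and Hyal2, a hyaluronidase, 10.28 against at most 9.12. These genes were chosen after their values were seen, no test was made, and 30 probe sets in all stood more than 1 log2 unit above every other mouse in this liver.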
